A study of Mus musculus with 6 samples.

Results

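The genes described here are 30 genes of sterol and fatty acid synthesis, out of 50090 gene names on the array. They were taken by name, as every probe that was not a control and carried 1 of the 30 gene symbols, a rule that uses no measured value. The list of symbols was itself chosen with earlier results of these data known. All 30 were on the array, with 51 probes between them, and 16 genes had more than 1 probe. By role, 17 were sterol enzymes, 6 were regulators of the pathway or moved sterol inside the cell, 6 belonged to fatty acid synthesis, and 1, Cyp7b1, hydroxylates oxysterols. Where a gene had several probes, it was represented by the probe with the highest mean signal over the 6 arrays.

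RNA came from NIH3T3, an immortalized line of mouse embryonic fibroblasts, infected with a retrovirus that carried either GFP alone or SIRT7 fused to GFP and then selected with Geneticin. GFP cells were the control, LT7 cells were SIRT7 overexpressing cells that stayed long, and ST7 cells were SIRT7 overexpressing cells that had become small. Each group had 2 samples taken at different passages, each hybridized to its own one-colour Agilent array. According to the study's methods, stable lines were grown from colonies after dilution plating, and LT7 and ST7 were then cloned again from single cells. A difference between lines therefore also holds any difference between clones. The p-values measure the spread between passages within a line, pooled over the 3 lines. LT7 and ST7 were separated by shape from dense SIRT7 dishes, and all 3 lines share the vector, the selection and the GFP tag.

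Cholesterol is built from acetyl-CoA by way of mevalonate, farnesyl diphosphate, squalene and lanosterol. Most enzymes of this route are transcribed under the sterol regulatory element binding protein SREBP-2, the product of Srebf2, while SREBP-1, the product of Srebf1, acts more on fatty acid synthesis. The SREBPs lie in the endoplasmic reticulum bound to Scap, which carries them to the Golgi for cleavage when sterol is low, and the Insig proteins hold Scap back when sterol is high. Insig1 and Srebf2 are themselves SREBP targets. Fibroblasts in culture make their own sterol and also take it up from serum.

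The processed signal is the intensity of a probe after the scanner software subtracted the background, and a probe was called measured in a group when that software marked it well above background on both arrays. On the GFP and LT7 arrays 47.4% to 57.5% of the probes were well above background, against 25.6% to 26.4% on the ST7 arrays. The 75th percentile of the signal was 317 to 384 on the GFP and LT7 arrays and 16.3 to 17.1 on the ST7 arrays. Differences are therefore given in log2 after subtraction of each array's 75th percentile, and those of ST7 depend on this scaling. LT7 replicate 1 had a scan date of its own, and the 5 other arrays shared another. All 11 fibroblast markers of a fixed list were measured in GFP and LT7 and 4 were in ST7, where Col1a1 read 295 and 255 against 61238 and 61798 in GFP. Sirt7 itself was higher in LT7 by 0.29 in log2 (limma, adjusted p = 0.471), and in ST7 both arrays left it undetected. It was not determined here whether the Sirt7 probes match the SIRT7 that the virus carried.

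The first question was how the genes stood in LT7 cells against GFP cells. For 16 of the 17 sterol enzymes both LT7 arrays lay above both GFP arrays, against 22.7% of measured probes. The highest values were those of Sqle, Fdft1, Lss and Hmgcs1. The LT7 arrays also lay above for 3 of the 6 regulators and transport genes, Insig1, Srebf2 and Insig2. Ebp was the exception among the sterol enzymes. After adjustment 0 of the 17 passed limma, where 0.0440% of all probes were called higher and 0.132% lower. Of the 30 genes, 29 were measured in both groups, and 27 of the 29 had a higher mean in LT7. The median difference over these 29 was 1.19 in log2, a 2.27-fold higher signal, against 0.03 over all 26922 probes measured in both groups. Within the roles the median difference was 1.40 for the 17 sterol enzymes, 0.81 for the 6 fatty acid genes and 0.32 for the 6 regulators and transport genes. Of the 29 genes, 22 lay among the 5% of measured probes with the highest difference, and 11 lay among the highest 1%. In RNA from whole cultures, more cells with a transcript and more of it per cell cannot be told apart.

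**Figure D1:**
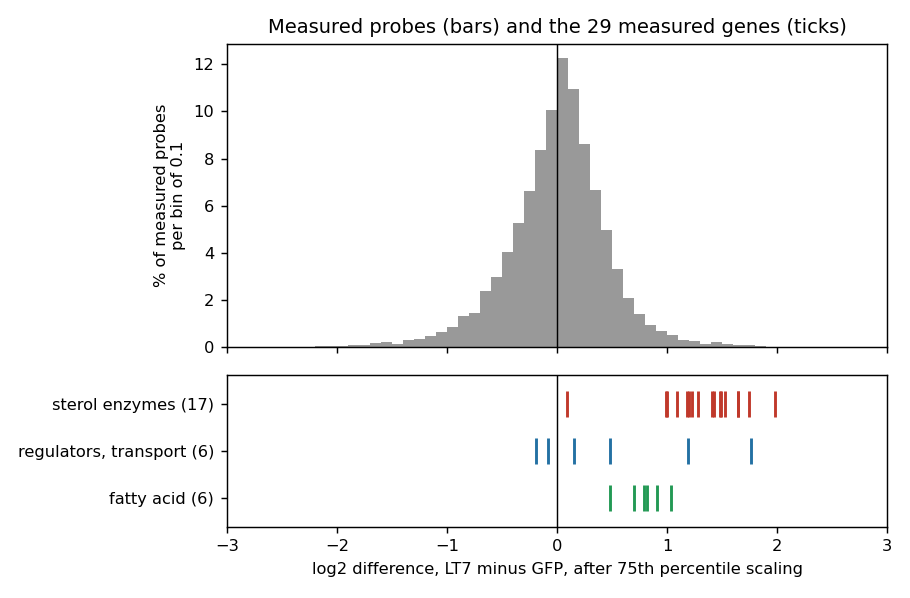
Upper panel, share of the 26922 probes measured in GFP and LT7 (% per bin of 0.1) by log2 difference between LT7 and GFP; lower panel, 1 tick for each of the 29 measured genes by role on the same axis, which is cut at -3 and 3. The bars centre near 0, while all but 1 of the sterol enzymes lie between 0.99 and 1.98.

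No single gene passed the test across all probes. With limma and Benjamini-Hochberg adjustment over 61307 probes, 0 of the 30 genes were called higher and 0 lower in LT7, where 0.0440% and 0.132% of all probes were called. At an unadjusted limma p under 0.05, 22 of the 30 were higher, against 22.9% of all probes. The lowest adjusted p was 0.0873, for Fdft1, and 17 genes shared the adjusted p of 0.102. These values draw on the spread of the ST7 arrays too. In a limma fit of GFP and LT7 alone the adjusted p of Fdft1 was 0.170. When the background was corrected with the normexp method in place of the scanner's own subtraction, limma called 14 of the 30 genes higher in LT7, against 0.328% of all probes. These were 12 sterol enzymes with Srebf2 and Scd2. With a filter on dim probes, limma called Fdft1 and Lss higher.

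The study's methods used a fold rule with a limit of 0.8 for each replicate and of 1 for their mean, and do not name its scale. It is read here as log2, so that a probe is up when its log2 ratio to the GFP mean is at least 0.8 in each replicate and over 1 on average. It sets no lowest signal and gives no p-value. By this rule 18 of the 30 genes were up in LT7, against 2.89% of all probes, and 0 were down, against 3.02%. Among the 29 measured genes 17 were up, where 1.47% of measured probes were. Both LT7 arrays lay above both GFP arrays for 25 of these 29 genes, against 22.7% of measured probes. Each LT7 array taken alone gave a median of 1.21 (replicate 1) and 1.16 (replicate 2) over the 29 genes. The value of replicate 2 also rests only on arrays that share a scan date, and by these 19 genes met the fold rule. Dhcr7 and Cyp7b1 were among the genes the study listed as altered in LT7 from these same arrays, so for them the rule is not independent evidence.

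The direction of the median held under every scaling that was tried except scaling on the 5 spike-in RNAs, which moved the median of all probes in LT7 to -2.05 and that of the 29 genes to -1.03. On LT7 replicate 1 the mean log2 level of the spike-in RNAs was 12.9, against 8.47 to 8.75 on the other arrays.

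The first steps of the route lead from acetyl-CoA to mevalonate. Acat2, the thiolase that joins acetyl-CoA units in the cytosol, read 370 and 300.3 on the GFP arrays and 966 and 726 on the LT7 arrays, a log2 difference of 1.43 (SE 0.23). Hmgcs1, which adds the next acetyl unit, read 7535 and 8993 in GFP and 29389 and 19734 in LT7, a difference of 1.65 (SE 0.31). For both genes each LT7 array lay above both GFP arrays.

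Mevalonate is then phosphorylated and decarboxylated. Mvk, mevalonate kinase, read 884 and 1013 in GFP and 2116 and 1910 in LT7 (1.19, SE 0.24 in log2). Pmvk, phosphomevalonate kinase, read 3267 and 3445 in GFP and 7856 and 6571 in LT7 (1.20, SE 0.23). Mvd, the decarboxylase that yields isopentenyl diphosphate, read 1564 and 1558 in GFP and 4609 and 3233 in LT7 (1.40, SE 0.30). The 3 kinase and decarboxylase genes thus stood close together, at 2.27-fold to 2.65-fold above GFP, with no overlap between the groups.

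The isoprenoid units are joined up to squalene. Idi1, the isomerase of isopentenyl diphosphate, read 2720 and 3678 in GFP and 9246 and 7779 in LT7, a log2 difference of 1.52 (SE 0.53). Fdps, farnesyl diphosphate synthase, read 5457 and 6626 in GFP and 13851 and 18037 in LT7, a difference of 1.49 (SE 0.29). Fdft1, squalene synthase and the first step committed to sterol, read 1718 and 1550 in GFP and 5407 and 4843 in LT7, a difference of 1.75 (SE 0.21). The wide error of Idi1 takes in its ST7 arrays, which read 2.83 and 8.04 and enter the same estimate of the spread.

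Squalene is then oxidized and closed into the sterol rings. Sqle, squalene epoxidase, had the largest difference among the measured genes, with 6815 and 6791 in GFP and 32127 and 19580 in LT7 (1.98, SE 0.28, or 3.95-fold). Only 0.126% of measured probes differed by as much or more in that direction. Lss, lanosterol synthase, read 519 and 484 in GFP and 1606 and 1339 in LT7 (1.65, SE 0.20). Its second probe gave the same difference, 1.65.

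Lanosterol is trimmed to cholesterol by a series of demethylases, reductases and an isomerase. Cyp51, lanosterol demethylase, read 908 and 733 in GFP and 2191 and 2066 in LT7, a log2 difference of 1.48 (SE 0.21). Tm7sf2, the sterol reductase after it, read 706 and 750 in GFP and 1720 and 1577 in LT7, a difference of 1.28 (SE 0.21). Nsdhl, a dehydrogenase of the demethylation complex, read 550 and 543 in GFP and 1255 and 1142 in LT7, a difference of 1.23 (SE 0.20). In all of these the LT7 replicates were close and clear of GFP. Hsd17b7, the ketoreductase of the same complex, read 1251 and 1255 in GFP and 1870 and 2887 in LT7 (0.99, SE 0.30), and its second probe gave 1.45. Sc5d, a sterol desaturase, read 1604 and 1695 in GFP and 3773 and 2518 in LT7 (1.00, SE 0.26). Both missed the fold rule, since Hsd17b7 had a ratio of 0.62 on LT7 replicate 1 and Sc5d of 0.76 on replicate 2.

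The last reductase, Dhcr7, read 1479 and 1349 in GFP and 3068 and 2562 in LT7, a log2 difference of 1.09 (SE 0.20). The isomerase Ebp was the sterol enzyme that did not follow the others. It read 10831 and 11606 in GFP and 13174 and 9473 in LT7, a difference of 0.09 (SE 0.24), and the GFP arrays lay between the LT7 arrays. Its sign turned without scaling and with LT7 replicate 1 or GFP replicate 1 left out.

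**Figure D2:**
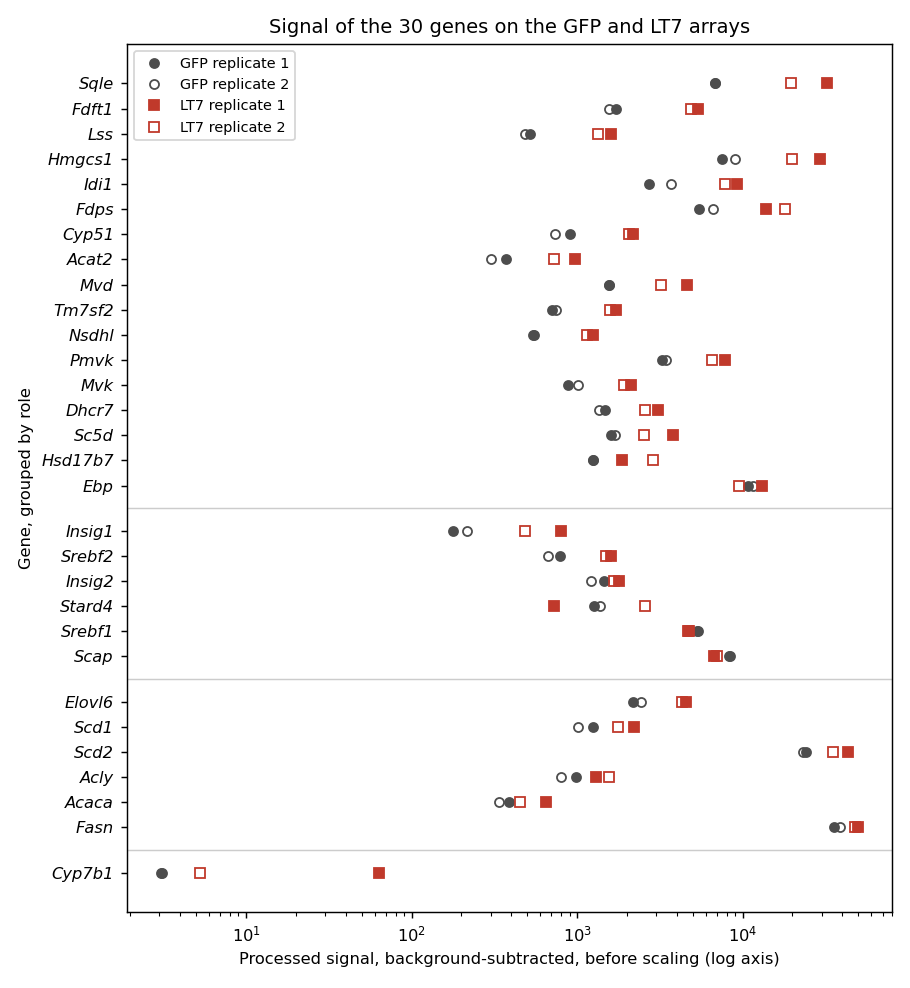
Processed signal before scaling (log axis) of each of the 30 genes on the 2 GFP arrays (grey circles) and the 2 LT7 arrays (red squares), with filled marks for replicate 1 and open marks for replicate 2. Genes are grouped by role; signals of different genes come from different probes and are not comparable, and within a gene the LT7 squares lie right of the GFP circles for all but Ebp, Stard4, Srebf1 and Scap.

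The regulators did not move as 1 group. Insig1, which retains Scap in the endoplasmic reticulum, read 177 and 215 in GFP and 799 and 481 in LT7 (1.77, SE 0.32, or 3.40-fold), the second largest difference among the measured genes, and its other probe gave 1.51. Srebf2 read 784 and 666 in GFP and 1593 and 1493 in LT7 (1.19, SE 0.19, or 2.28-fold). Both met the fold rule, and neither had overlapping groups.

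The other regulators showed smaller values. Srebf1 read 5364 and 5295 in GFP and 4761 and 4647 in LT7, a log2 difference of -0.08 (SE 0.20, adjusted p = 0.861), and its groups overlapped after scaling. Scap read 8426 and 8324 in GFP and 6678 and 6993 in LT7, a difference of -0.19 (SE 0.21, adjusted p = 0.643). Insig2, the paralog of Insig1, read 1463 and 1210 in GFP and 1801 and 1676 in LT7, a difference of 0.48 (SE 0.26, adjusted p = 0.324). By this probe the groups of Insig2 did not overlap either, but it did not meet the fold rule.

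Its second probe, brought by another transcript accession, read 417 and 306 in GFP and 180 and 360 in LT7, a log2 difference of -0.39 (SE 0.72), so the sign for Insig2 depended on the probe. Stard4, which carries cholesterol between membranes, likewise differed between its probes. The brightest read 1262 and 1382 in GFP but 728 and 2583 in LT7, a difference of 0.15 (SE 0.64), with 1 LT7 array below and 1 above GFP. Its other 2 probes gave 1.28 and 1.08, with both LT7 arrays above both GFP arrays. Over all genes, 16 further probes of 13 genes were measured in both groups, of which 15 had the sign of the chosen probe, and the median distance between the 2 differences was 0.22.

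For each of the 6 fatty acid genes both LT7 arrays lay above both GFP arrays, against 22.7% of measured probes. After adjustment limma called 0 of the 6, against 0.0440% of all probes higher and 0.132% lower. At an unadjusted limma p under 0.05, 4 of the 6 were higher, against 22.9% of all probes. The difference between this role and the sterol enzymes was not tested. Acly, which supplies acetyl-CoA from citrate, read 979 and 800.4 in GFP and 1302 and 1567 in LT7 (0.79, SE 0.22 in log2). Acaca, the carboxylase that makes malonyl-CoA, differed by 0.70 (SE 0.23), and Fasn, the synthase that builds palmitate, by 0.48 (SE 0.22). Elovl6, which lengthens palmitate, read 2173 and 2444 in GFP and 4534 and 4319 in LT7 (1.04, SE 0.23), and it was the fatty acid gene that met the fold rule. The desaturases Scd1 and Scd2 differed by 0.91 (SE 1.13) and 0.82 (SE 0.20). The SE of Scd1 likewise takes in its ST7 arrays, at 2.95 and 37.6.

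Adipocytes also express these enzymes. Of 9 adipocyte markers, Adipoq, Plin1, Cidec, Cfd and Lep stayed undetected on all 6 arrays. Only 3 of the 9 were measured in GFP and LT7, and the summed signal of the list was 3794 and 3133 in GFP and 1500 and 1082 in LT7. Most of the sum was Lpl, at 3194 and 2573 in GFP and 1348 and 899 in LT7, while Pparg read 68.4 and 65.5 in GFP and 67.6 and 81.1 in LT7. Fabp4 read 505 and 455 in GFP and 57.0 and 59.5 in LT7, a log2 difference of -2.94 (limma, adjusted p = 0.0389). The part of these markers in the result was not tested.

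Cyp7b1, which hydroxylates oxysterols, stood apart from the other genes. It was below background in GFP, at 3.08 and 3.13, and in LT7 it read 63.4 on replicate 1 and 5.27 on replicate 2, so it was well above background on 1 array of the 6. No fold or bound can be given for LT7 as a group, since LT7 replicate 2 was below background like GFP. The fitted log2 difference of 2.66 (SE 1.10, limma adjusted p = 0.204) is taken over a GFP signal below background. Cyp7b1 met the fold rule, and its difference rested on LT7 replicate 1, the array with a scan date of its own.

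**Figure D3:**
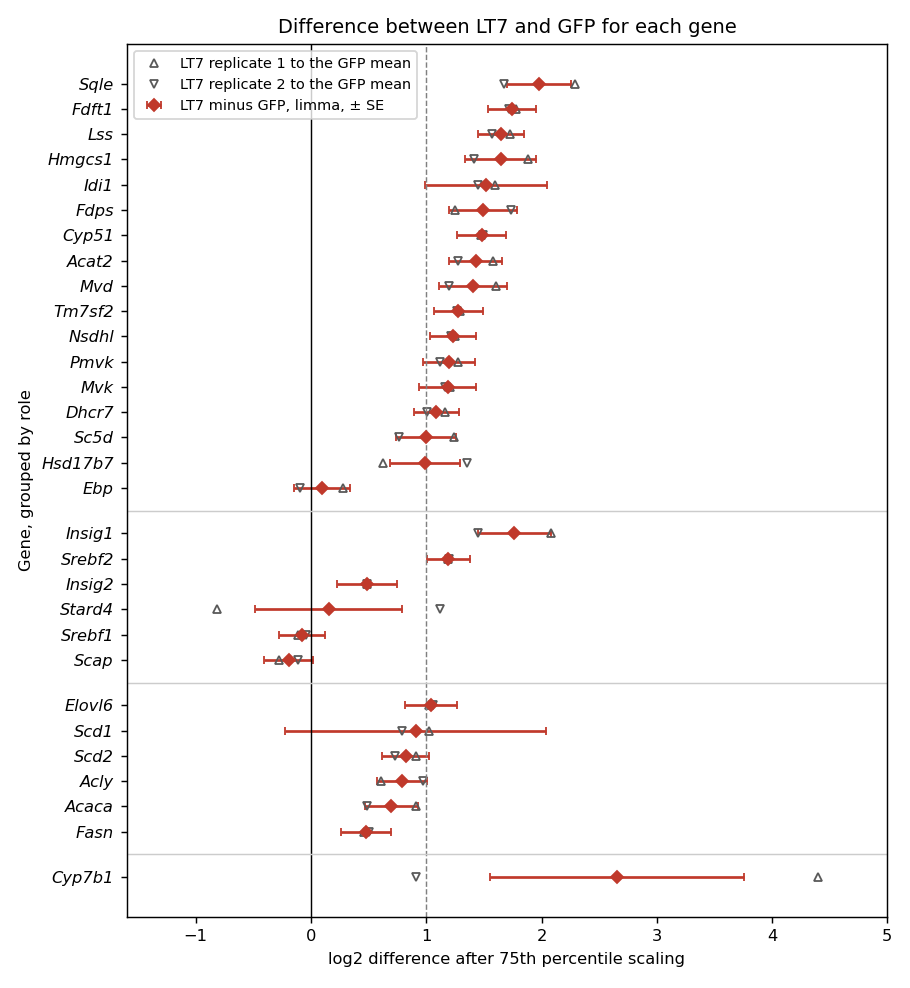
log2 difference between LT7 and GFP of each gene after 75th percentile scaling, by role: diamonds with bars are the limma difference ± SE (n = 2 arrays a group), triangles are each LT7 array against the GFP mean, and the dashed line marks 1. The triangles of a gene lie on the same side of 0 except for Ebp and Stard4, and they lie farthest apart for Cyp7b1, whose GFP signal was below background, and Stard4.

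A list of 57 further genes of the pathway, of which 56 were on the array, was counted beside the 30. After adjustment limma called 0 of the 56 in LT7, against 0.0440% of all probes higher and 0.132% lower. At an unadjusted limma p under 0.05, 12 were higher, which is near the 22.9% of all probes. At the same limit 2 were lower, against 2685 of 61307 probes. The median difference of the 39 measured was 0.20, against 0.03 over all measured probes. By the fold rule 7 of the 56 were up and 1 was down in LT7, against 2.89% and 3.02% of all probes. The ones up included Sc4mol, the sterol methyl oxidase, at 1.51 (SE 0.24). The one down was Abca1, which exports cholesterol to lipoprotein and is induced by oxysterols, at -1.45 (SE 0.25). The enzymes of the route thus stood higher than the wider list of uptake, export and lipid genes.

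Since the sterol genes share a known regulator, their RefSeq promoters were searched on both strands for letters of its binding site and of the sites of its usual partners. The windows ran from 250 bases before to 50 after the transcription start, in build GRCm38.p6, and 23 of the 30 genes had at least 1, with 31 windows in all. The core TCACNCCAC of the sterol regulatory element was found in 1 of the 31, that of Hmgcs1, and in 1.24% of 32851 windows of all genes. The box CCAAT, read as ATTGG on the other strand, was in 20 of the 31 and in 37.4% of all windows. The GC box GGGCGG, read as CCGCCC, was in 23 of the 31 and in 35.7% of all windows. A GC box may share letters with a CCAAT box, which none of the printed matches do, and a match or its absence describes the letters of the window only.

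The promoters of the 4 genes with the largest difference among those that met the fold rule in LT7 and had a window are printed with the matches in capitals, since they show how the motifs lie in genes whose signals were 2.87-fold to 3.40-fold higher. Each is the 250 bases before the start, on the plus strand: Insig1 at chr5:28071162-28071411, Lss at chr10:76531355-76531604, Hmgcs1 at chr13:119690101-119690350 and Idi1 at chr13:8885356-8885605.
Insig1: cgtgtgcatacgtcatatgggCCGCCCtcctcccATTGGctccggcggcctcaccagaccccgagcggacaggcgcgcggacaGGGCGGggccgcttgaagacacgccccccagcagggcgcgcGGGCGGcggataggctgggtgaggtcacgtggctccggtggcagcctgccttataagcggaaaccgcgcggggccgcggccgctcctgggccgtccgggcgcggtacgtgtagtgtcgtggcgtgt
Lss: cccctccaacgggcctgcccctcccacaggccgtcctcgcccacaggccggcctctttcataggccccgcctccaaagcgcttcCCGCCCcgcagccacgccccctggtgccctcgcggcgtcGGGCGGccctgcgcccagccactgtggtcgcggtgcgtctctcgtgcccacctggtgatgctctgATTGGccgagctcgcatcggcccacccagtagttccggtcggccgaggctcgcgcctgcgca
Hmgcs1: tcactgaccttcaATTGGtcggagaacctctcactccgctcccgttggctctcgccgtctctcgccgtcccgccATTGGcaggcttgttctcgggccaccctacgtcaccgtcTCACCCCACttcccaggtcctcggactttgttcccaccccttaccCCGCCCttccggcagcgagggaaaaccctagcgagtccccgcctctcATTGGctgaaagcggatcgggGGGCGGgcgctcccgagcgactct
Idi1: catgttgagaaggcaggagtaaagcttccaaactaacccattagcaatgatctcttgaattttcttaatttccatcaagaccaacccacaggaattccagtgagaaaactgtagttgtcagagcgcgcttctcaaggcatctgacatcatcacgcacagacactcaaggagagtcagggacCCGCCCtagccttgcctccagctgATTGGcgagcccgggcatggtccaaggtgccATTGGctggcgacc

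The Hmgcs1 promoter holds the core as TCACCCCAC, starting 137 bases before the transcription start, after 2 of its 3 CCAAT boxes. The Insig1 and Lss promoters hold 1 CCAAT box each with 3 and 2 GC boxes, and the Idi1 promoter holds 2 CCAAT boxes close to the start beside 1 GC box.

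The second question was how the genes stood in ST7 cells. By the probe that represents each gene, 9 of the 30 genes passed the background mark on both ST7 arrays, 2 did so on 1 array, and 19 on neither. Idi1, Insig1, Nsdhl and Acaca, which are among the 19, each had another probe that passed it on both arrays, so 13 of the 30 genes were measured by at least 1 probe. All 9 were among the 29 genes measured in GFP and LT7, and over the whole array 41.2% of the probes measured in those groups were measured in ST7 as well. The 9 were Acat2, Hmgcs1, Mvk, Fdps, Sqle, Cyp51, Srebf1, Scap and Acly.

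Before scaling, 8 of the 9 had lower signals in ST7 than in GFP, and Acly had higher ones. Acly read 1280 and 1397 on the ST7 arrays, against 979 and 800.4 in GFP. Fdps read 1423 and 1632 in ST7, and Sqle read 583 and 680. For each of these 3 the ST7 replicates lay close together.

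Hmgcs1 read 211 and 291 in ST7, Cyp51 149 and 195, and Acat2 97.1 and 128. Scap read 189 and 180, Srebf1 94.2 and 97.7, and Mvk, just above background, 14.5 and 18.2. Before scaling the ST7 arrays lay below both GFP arrays for each of these 6 genes.

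After the 75th percentile shift the direction changed for several of them. Acly was higher in ST7 than in GFP by 4.99 (SE 0.22) in log2, Acat2 by 2.82 (SE 0.23), Fdps by 2.42 (SE 0.29), Cyp51 by 2.14 (SE 0.21) and Sqle by 0.97 (SE 0.28), with limma adjusted p-values from 1.7e-05 to 0.0195. Mvk was lower with -1.47 (SE 0.24), Srebf1 with -1.40 (SE 0.20) and Scap with -1.11 (SE 0.21), and Hmgcs1 at -0.65 (SE 0.31) was not called (adjusted p = 0.0915). Without scaling these differences were 0.59 for Acly, -1.58 for Acat2, -1.98 for Fdps, -2.26 for Cyp51 and -3.43 for Sqle. By these probes Acly was therefore higher, and Mvk, Srebf1 and Scap lower, under each of the scalings tried, while Acat2, Fdps, Cyp51 and Sqle turned with the scaling. Hmgcs1 was negative under each scaling by this probe. Its second probe read 37.4 and 37.8 in GFP and was below background in ST7. The value of 0.79 (SE 0.21) that it had after the shift therefore gives no measured direction.

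The median difference of the 9 genes by these probes was 0.97 after the shift, against 3.60 over all probes measured in GFP and ST7, and the median of all probes was 3.72 after it and -0.68 without it. On the shifted scale limma called 6 of the 30 genes higher and 22 lower in ST7 than in GFP, where 70.7% of all probes were higher and 19.8% lower. The fold rule called 5 up and 22 down, against 70.7% and 19.0% of all probes. Both counts of higher genes include Cyp7b1, which read 3.08 to 3.57 on the GFP and ST7 arrays, below background on all 4, so that its value there comes from the shift alone. Against LT7, 4 genes were higher and 25 lower, where 71.0% and 19.7% of all probes were.

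**Figure D4:**
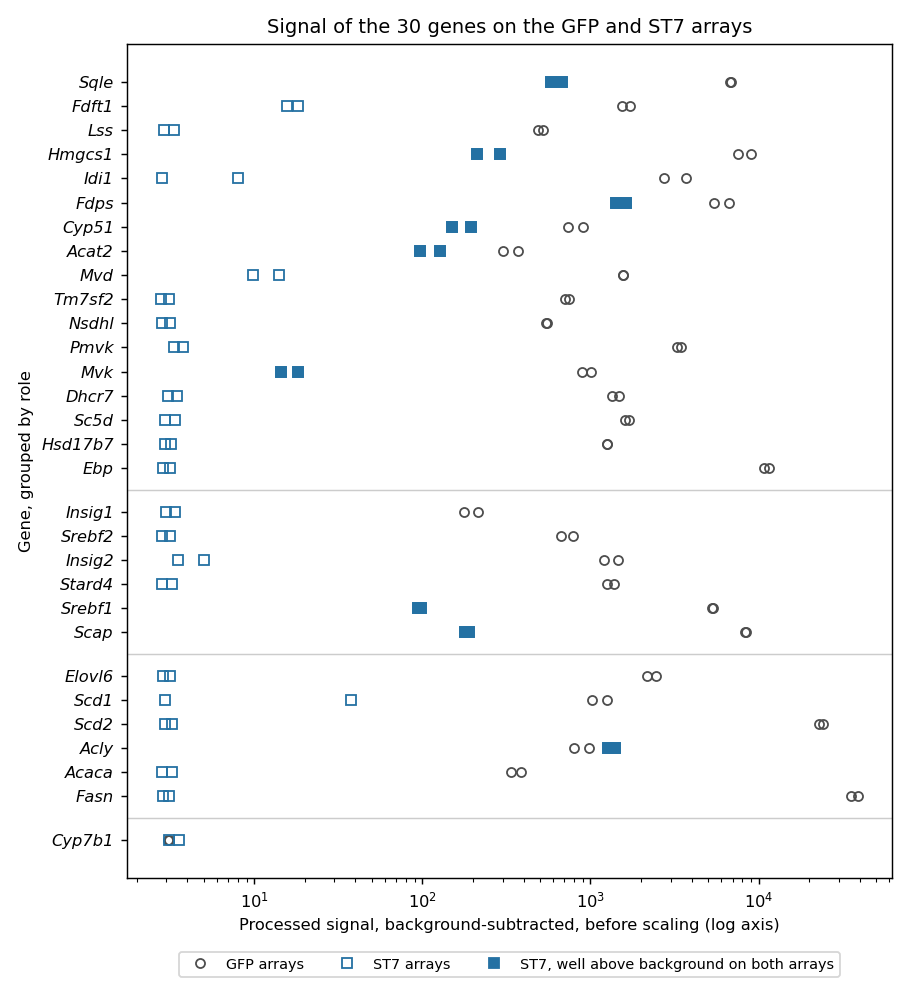
Processed signal before scaling (log axis) of each of the 30 genes on the 2 GFP arrays (grey circles) and the 2 ST7 arrays (blue squares), filled where the representing probe of the gene was well above background on both ST7 arrays. The 9 filled genes span 14.5 to 1632, while most open squares lie near 3.

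For the 19 genes whose representing probe neither ST7 array detected, that probe bounds the fold from one side only. The bound sets the mean of the brighter group against the higher of the gene's own ST7 level and the lowest ST7 level among probes well above background, each after the shift. This lower limit was 1 or more for 17 of the 19 genes, and by these probes GFP was at least 1.16-fold to 120-fold higher. It was largest for Fasn, at least 120-fold, then Scd2 at 76.2-fold and Ebp at 36.1-fold. By its construction the limit rises with the GFP signal of the probe, so its order does not rank how far the genes fell. The second Fasn probe, at 245 and 250 in GFP and undetected in ST7, gave no limit over 1. For Pmvk the limit was at least 10.8-fold, for Idi1 10.2-fold, for Elovl6 7.42-fold and for Sc5d 5.31-fold.

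Mvd had a limit of at least 5.01-fold, Dhcr7 of 4.55-fold, Insig2 of 4.28-fold, Stard4 of 4.25-fold and Hsd17b7 of 4.03-fold. Tm7sf2, Srebf2, Nsdhl, Lss and Acaca had limits between 1.16-fold and 2.34-fold. For 3 of the 17 genes another probe, measured in ST7, went the other way on the same scale. By it ST7 was higher than GFP by 2.70 (SE 0.28) in log2 for Idi1, 2.40 (SE 0.23) for Nsdhl and 4.53 (SE 0.30) for Acaca. On the shifted scale their direction thus turned with the probe. Before scaling that probe read lower in ST7 for Idi1 (29.8 and 26.6 against 83.9 and 100.1 in GFP) and Nsdhl (116 and 95.2 against 438 and 403). That of Acaca overlapped, at 24.4 and 19.2 in ST7 against 22.0 and 17.7 in GFP. No limit is given for Insig1, whose GFP level lay under the ST7 floor, or for Cyp7b1, below background in both groups. Fdft1 read 18.1 and 15.7 in ST7 and Scd1 2.95 and 37.6, each above background on 1 array.

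Probes of the same gene did not always tell the same story in ST7. Of the 30 genes, 13 had at least 2 probes measured in GFP and LT7, and in 5 of these 1 probe was measured on both ST7 arrays while another was not. This was 38.5% of the 13, close to the 35.2% of all 4711 gene names with at least 2 such probes. The split was thus common over the array and not particular to these genes. The 5 were Cyp51, Hmgcs1, Idi1, Insig1 and Nsdhl. The cause was not tested.

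Insig1 showed it most plainly, and the first 30 bases of its probes and of the Cyp51 probes are printed. In ST7 the direction against GFP turned on which probe was read, for Cyp51 after the shift but not before scaling. The files name these probes by number, and they are ordered here by signal in GFP.
Insig1 probe 1: acagcatagaacacaacacgtgggacctaa
Insig1 probe 2: ctacgctgatcactcagtttcttgtgtata
Cyp51 probe 1: cgttgtgttggagaaaattttgcctatgtt
Cyp51 probe 2: aggttccttttagtattatctttggttatt
Cyp51 probe 3: caaaagaaccagctgaggacattcttcaaa

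On the ST7 arrays Insig1 probe 1 read 2.97 and 3.38, where GFP gave 177 and 215 and LT7 gave 799 and 481. Probe 2 read 214 and 232 in ST7, where GFP gave 55.6 and 45.0 and LT7 gave 174 and 102. In LT7 both probes were higher than in GFP, while in ST7 probe 1 was lost and probe 2 gave the highest signal of the 3 groups before any scaling.

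Cyp51 probe 1 read 149 and 195 in ST7, while probe 2 read 2.86 and 3.46 and probe 3 read 2.84 and 3.17. In GFP the same probes read 733 to 908, 694 to 823 and 211 to 253, and in LT7 their differences agreed, at 1.48, 1.43 and 1.47 in log2. Nsdhl had 1 probe at 116 and 95.2 in ST7 and its other 2 near 3. Hmgcs1 had its second probe at 2.88 and 3.31 in ST7, and Idi1 had its second probe at 29.8 and 26.6 where the brighter one was below background.

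**Figure D5:**
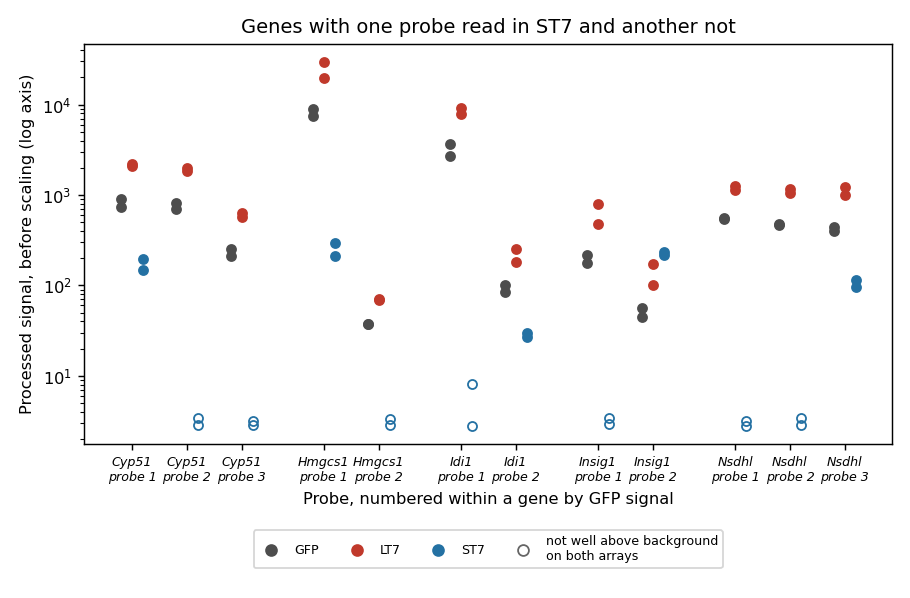
Processed signal before scaling (log axis) of each probe of the 5 genes with 1 probe measured in ST7 and another not, on the 2 arrays of GFP (grey), LT7 (red) and ST7 (blue), open where the probe was not well above background on both arrays. Within a gene the LT7 points lie above the GFP points for every probe, whereas the ST7 points lie near 3 for some probes and between 26.6 and 291 for others.

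With 2 arrays a group, which limits the precision of every value, no order between neighbours such as Hmgcs1 and Lss, or Fdps and Cyp51, can be read from the LT7 differences, since they lie within each other's SE.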

How the data were processed

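RNA of 6 samples was hybridized to 6 one-colour arrays on 1 slide. The deposited intensity values are the authors' Feature Extraction output, with the background subtracted (processed signal). The authors' series matrix holds log2 values after a 75th percentile shift, used as an alternative. Rebuilt from the scanner files, it differed by more than 0.01 at 5 to 13 probes an array once a constant offset was removed.

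Outlier spots were dropped, the spots of each probe averaged, and each array's 75th percentile subtracted in log2. A probe was well above background only if all its spots were. All 61307 probes were fitted over the 6 arrays with limma 3.58.1 in R 4.3.3, Benjamini-Hochberg adjusted p-values and a threshold of 0.05, after tests on simulated data. Fold values are 2 to the power of the log2 difference. No member was saturated.

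The members, lists and tests were chosen with earlier results of these data known. Every member is named, and array values are given for those called in LT7, the 5 with the largest measured change, those measured in ST7, and the regulators. Sequences are from RefSeq and, for probes, the scanner files. Replicate numbers were not taken to pair the arrays, since same-numbered arrays did not deviate together in every pair of groups. The alternatives were other scalings, normexp, the matrix values, a filter on dim probes, the mean of a gene's probes, a replicate block, 2 groups alone and single arrays left out.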

Additional observations from a re-analysis of the deposited data

How the results depend on the processing

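Among the alternatives, scaling on the spike-in RNAs turned the median of the measured genes in LT7 to -1.03, left 0 genes to the fold rule and turned the log2 differences of 27 genes negative, Ebp -2.12, Stard4 -2.06, Fasn -1.74, Insig2 -1.73, Acaca -1.52, Acly -1.43, Scd2 -1.40, Scd1 -1.31, Hsd17b7 -1.23, Sc5d -1.22, Elovl6 -1.18, Dhcr7 -1.13, Mvk -1.03, Srebf2 -1.03, Pmvk -1.02, Nsdhl -0.99, Tm7sf2 -0.94, Mvd -0.81, Acat2 -0.79, Cyp51 -0.74, Fdps -0.72, Idi1 -0.70, Hmgcs1 -0.57, Lss -0.57, Fdft1 -0.47, Insig1 -0.45 and Sqle -0.24, while all probes stood at -2.05. With quantile normalization the median in LT7 was 1.10, without scaling 1.09 and with normexp 1.08. limma called 14 genes in LT7 with normexp and 2 with the filter on dim probes. With normexp the adjusted p of Fdft1 was 0.0070, which ranged to 0.803 over the alternatives. Ebp turned to -0.0052 without scaling and ran from -0.093 (without LT7 replicate 1) to 0.28 with single arrays left out. Srebf1 ran from -0.20 to 0.032 (without GFP replicate 2), and Stard4 from -0.81 (without LT7 replicate 2) to 1.12 (without LT7 replicate 1). With single arrays left out, the median in LT7 ran from 1.03 to 1.25, the fold rule called 15 to 20 genes and limma 0 to 1, the 1 being Cyp7b1 without LT7 replicate 2 (adjusted p = 0.0386, from 0.0386 to 1.00 over the alternatives), where a lone LT7 array, assumed to vary like the other groups, is set against a GFP signal below background, so this call gives no measured fold.

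In ST7 the median of the measured genes was -0.97 when the percentile came from the probes that every array detected, 0.55 with quantile normalization, -3.43 without scaling, -3.25 with the spike-in RNAs, -0.91 with normexp and 0.068 with the mean of all probes of a gene, and 0.84 to 1.09 with single arrays left out. Sqle turned to -0.97, -3.43, -3.25 and -0.91 under the percentile of those probes, no scaling, the spike-in RNAs and normexp. Without scaling Acat2 turned to -1.58, Fdps to -1.98 and Cyp51 to -2.26, and with the spike-in RNAs to -1.40, -1.80 and -2.07. With the mean of all probes Cyp51 turned to -1.08 and Hmgcs1 to 0.068. The causes were not tested beyond the construction of each scaling.

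Deviations of arrays with the same replicate number correlated at 0.08 (GFP with LT7), 0.04 (GFP with ST7) and -0.02 (LT7 with ST7) over all probes, and at 0.09, 0.33 and -0.03 over the 11081 probes detected on all arrays. With the replicate block limma called 0 of the 30 genes in LT7 and 28 in ST7 against GFP, and 0 against 108 probes in LT7 over the whole array. The few arrays and, in ST7, signals near background limit all values.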
